A study of Gallus gallus with 2 samples.

Results

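Long non-coding RNA (lncRNA) transcripts placed on chicken chromosomes 6 and 8 were examined in breast muscle of a fast-growing and a slow-growing strain. They were taken by chromosome name alone, without the scaffolds that are only loosely assigned to these chromosomes. This gave 749 transcripts on chromosome 6 and 685 on chromosome 8, 1434 of the 21993 listed in the deposited table. The rule used no measured value, but it was chosen with earlier results of these data known.

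The study set White Recessive Rock (WRR), a strain labelled fast-growing, beside Xing Hua (XH), a native Chinese strain labelled slow-growing. All birds were females of 7 weeks, with a body weight of 625.3 ± 12.0 g in WRR and 328.5 ± 10.6 g in XH. The kind of error is not named in the labels. RNA of 4 birds was mixed for each strain, freed of ribosomal RNA and sequenced as 1 library with strand marking by dUTP on an Illumina HiSeq 2000. Both strains shared 1 diet and space and stood in different cages, so strain, cage and library cannot be told apart. With 1 library per strain there is no spread between birds, no test between strains and no p-value: each difference given is one between 2 pooled libraries. Fewer cells of a type and less RNA per cell cannot be told apart in such bulk samples either.

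LncRNAs are transcripts with no long open reading frame that are made, and often spliced, much like messenger RNAs. Some act on the gene beside which they are made, by recruiting chromatin-modifying complexes or through the act of transcription itself. Others act elsewhere in the cell, for example by binding microRNAs or proteins, and several are known from mouse and human muscle, where they take part in the differentiation of muscle precursors. Most have low levels and narrow tissue ranges. Chicken chromosomes fall into a few large ones and many small, gene-rich microchromosomes, and chromosomes 6 and 8 belong to the intermediate ones between these.

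The table gives for each transcript the uniquely mapped reads, the RPKM (those reads divided by the transcript length in kilobases and by the library total in M) and the coverage, the percent of the transcript's length with reads. Positions are on the build galGal4 and transcripts are named by them, because the table pairs them with no gene. For the same reason the labelled tissue could not be checked against muscle markers, and neighbouring genes, exons, strand and sequence were not analysed here. Reads on all listed transcripts were 1846031 of a library total of 9.44 M in WRR, and 1883727 of 7.71 M in XH. The serial numbers of the transcripts fall into 3 series, described once here because the measurements moved with them. Series A runs from number 1 to 3658, and its consecutive members switched chromosome 2625 times. Series B, up to 11941, and series C, up to 22903, each stepped through the chromosomes in order, with 27 switches. The sources used here do not say what the series stand for. Chromosome 6 held 116 transcripts of series A, 279 of B and 354 of C, and chromosome 8 held 155, 222 and 308.

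Chromosome 6 carried 21.4 listed transcripts per Mb over 34.95 Mb, and chromosome 8 carried 23.8 per Mb over 28.77 Mb. Among 28 autosomes these densities ranked 18th and 12th. The chromosomes nearest in size had 26.8 per Mb (chromosome 7), 22.3 per Mb (chromosome 9) and 35.3 per Mb (chromosome 10). Transcripts were strung unevenly along both chromosomes. On chromosome 6 the count per 1 Mb window went as high as 49, at 4 to 5 Mb, followed by 43 at 25 to 26 Mb and 40 at 14 to 15 Mb. The window directly after the fullest, at 5 to 6 Mb, held none. The longest stretch without a listed transcript ran from 4766713 to 6068953, over 1302 kb. On chromosome 8 the fullest windows were 15 to 16 Mb with 55 transcripts, 3 to 4 Mb with 51 and 10 to 11 Mb with 44. Its longest empty stretch, from 8029510 to 9701974, spanned 1672 kb, so that the windows at 8 to 9 and 9 to 10 Mb held 2 and 4 transcripts. The first 5 Mb of chromosome 8 were the densest 5 Mb of either chromosome, at 33.8 per Mb, and 5 to 10 Mb of chromosome 6 the sparsest, at 8.00 per Mb.

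**Figure D1:**
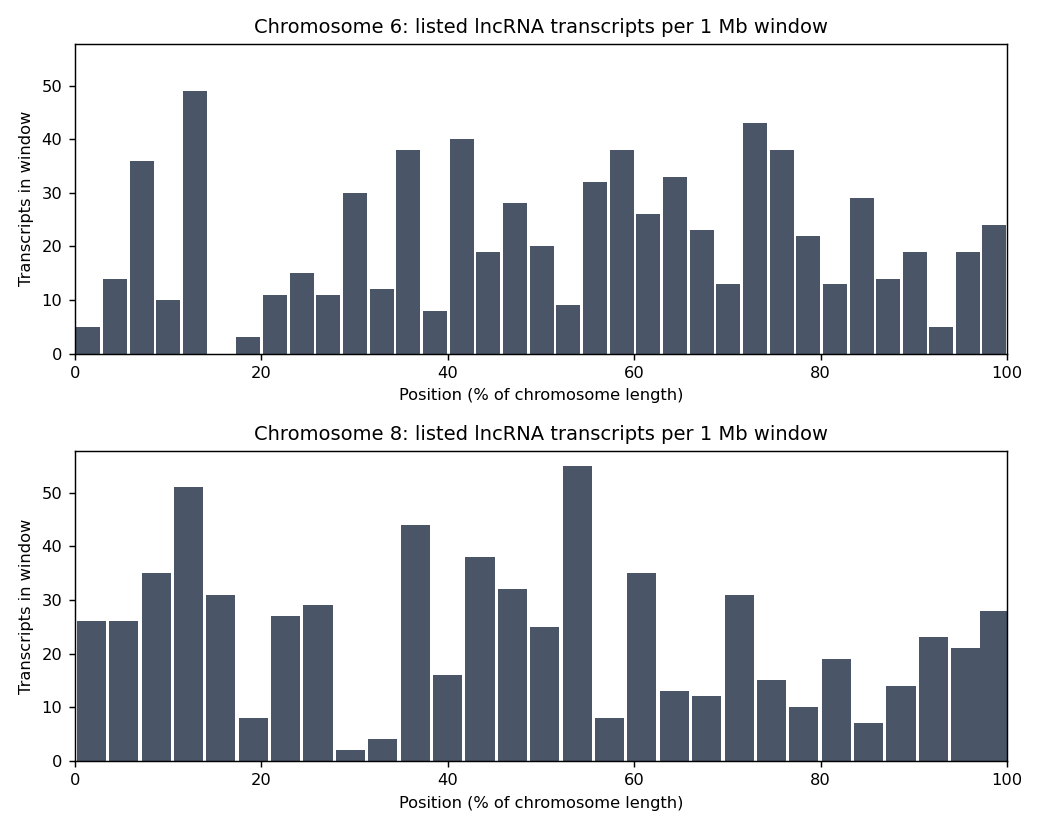
Number of listed lncRNA transcripts (vertical axis) in each 1 Mb window along chromosome 6 (top) and chromosome 8 (bottom), with position as percent of chromosome length on the horizontal axis. The fullest windows hold 49 and 55 transcripts, and 1 window of chromosome 6 is empty.

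Part of the transcripts of each chromosome lay in tight groups. When transcripts no more than 20 kb apart were joined, chromosome 6 fell into 206 groups, of which 76 were single transcripts and 12 had at least 10 members. Those 12 held 239 of the 749 transcripts. Chromosome 8 fell into 192 groups, with 75 single transcripts and 14 groups of at least 10 that held 229 of the 685. The largest group had 36 members on each chromosome. Whether the members of a group are pieces of a longer transcript was not tested, since the table gives no strand or exons. Intervals overlapped for 76 transcripts of chromosome 6, in 34 sets, and for 71 of chromosome 8, in 28 sets of up to 8.

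The transcripts were mostly short and contiguous. The median length was 860 bases on chromosome 6 and 888 on chromosome 8, against 844 over all listed transcripts. The longest had 8121 bases on chromosome 6 and 15680 on chromosome 8. For 30 transcripts of chromosome 6 (4.01%) and 44 of chromosome 8 (6.42%) the genomic interval was longer than the transcript, as an intron would make it, against 4.84% of all listed.

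Levels were low in both libraries and lower in WRR. The median RPKM on chromosome 6, with transcripts without reads as 0, was 2.53 in WRR and 4.18 in XH, and on chromosome 8 it was 2.95 in WRR and 4.84 in XH. Over all listed transcripts it was 2.65 in WRR and 4.48 in XH, so both chromosomes lay near the whole table. At least 10 RPKM was reached on chromosome 6 by 102 transcripts (13.6%) in WRR, against 164 (21.9%) in XH. On chromosome 8 it was reached by 94 (13.7%) in WRR, against 176 (25.7%) in XH. Over all listed transcripts the shares were 11.2% in WRR and 20.7% in XH. At least 100 RPKM was reached on chromosome 6 by 5 transcripts in WRR and 4 in XH. On chromosome 8 it was reached by 1 in WRR and 7 in XH, and over all listed transcripts by 135 in WRR and 143 in XH. More transcripts thus reached these levels in XH, except for the 100 RPKM mark on chromosome 6. The typical transcript rested on few reads, a median of 21 in WRR and 27 in XH on chromosome 6, and of 23 in WRR and 31 in XH on chromosome 8. Median coverage was 80.6% in WRR and 89.7% in XH on chromosome 6, and 82.5% in WRR and 91.1% in XH on chromosome 8. Transcripts without reads in a library have no coverage value there and are left out of its coverage medians, here and below.

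The reads summed over each chromosome formed a smaller share of the WRR library. Chromosome 6 took 39316 reads in WRR, 0.416% of the library total (exact 95% interval 0.412 to 0.420%), against 56023 in XH, 0.726% (0.720 to 0.732%). Chromosome 8 took 56329 reads in WRR, 0.597% (0.592 to 0.601%), against 77292 in XH, 1.00% (0.995 to 1.01%). The ratio of these shares, WRR over XH, was 0.573 (0.566 to 0.581) on chromosome 6 and 0.595 (0.589 to 0.602) on chromosome 8. The same ratio was 0.646 on chromosome 7, 0.579 on chromosome 9, 0.577 on chromosome 10 and 0.801 over all listed transcripts, higher than on these 5 chromosomes. These intervals cover counting error only, not birds or library preparation. Reads were concentrated in a few transcripts. The 10 with the most reads in each library held 26.1% of the chromosome 6 reads in WRR and 21.3% in XH, and 35.0% of the chromosome 8 reads in WRR and 32.9% in XH. Over all listed transcripts the 10 with the most reads held 29.7% in WRR and 11.3% in XH. The ratio of 0.801 thus rests on few transcripts more in WRR than in XH, and how it would stand without them was not tested.

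**Figure D2:**
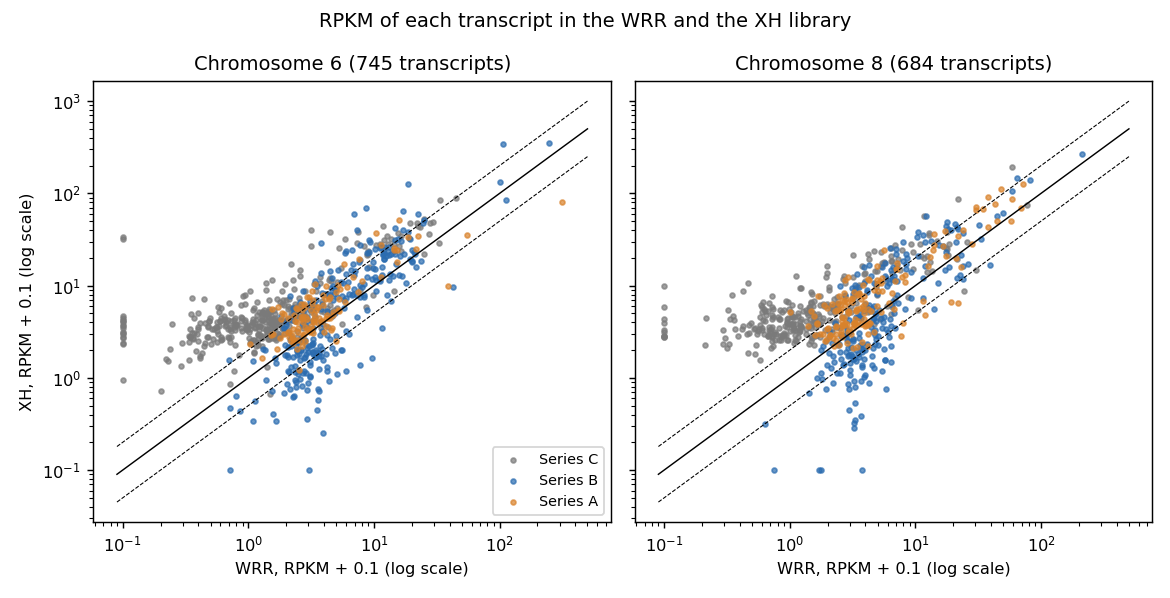
RPKM + 0.1 of each transcript in WRR (horizontal axis) and in XH (vertical axis), both on log scales, for chromosome 6 (left, 745 transcripts) and chromosome 8 (right, 684), coloured by numbering series. The solid line marks equal values and the dashed lines a 2-fold difference. Points above the upper dashed line are mostly of series C, and those below the lower one mostly of series B.

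To set single transcripts side by side, the log2 ratio of WRR over XH was taken after adding 0.1 RPKM to each value, which understates the change of low transcripts. A filter of 0.5 RPKM in whichever library was higher kept 745 of 749 on chromosome 6 and 684 of 685 on chromosome 8. On chromosome 6 a value at least 2-fold higher in WRR was found for 62 transcripts, 8.32%, where 9.45% of all 21625 listed transcripts past the filter were so called. At least 2-fold higher in XH were 356, or 47.8%, against 46.9% of all. On chromosome 8 there were 57 (8.33%) higher in WRR and 344 (50.3%) higher in XH, against the same 9.45% and 46.9%. Both chromosomes were thus near the share of the whole table in each direction. The median log2 ratio was -0.94 on chromosome 6 (95% interval from order statistics -1.04 to -0.86) and -1.02 on chromosome 8 (-1.15 to -0.85), against -0.92 over all.

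The whole table was shifted towards XH by this -0.92, and the lean of the counts went with it. Taken relative to that median, chromosome 6 had 144 transcripts past 2-fold towards WRR and 157 towards XH, and on chromosome 8 the counts were 150 higher in WRR and 145 in XH. The share of all transcripts called on this relative scale was 22.3% higher in WRR and 20.3% higher in XH. With TMM factors, which scale libraries by a trimmed mean of ratios, the counts were 136 higher in WRR and 172 in XH on chromosome 6, and 137 and 156 on chromosome 8. After quantile normalization they were 132 in WRR and 147 in XH on chromosome 6, and 133 and 137 on chromosome 8. Scaled to the listed reads, they were 84 in WRR and 266 in XH on chromosome 6, and 86 and 275 on chromosome 8. Each of these scalings brought the counts of the 2 directions closer together. Shares over all listed transcripts were not computed with TMM, quantiles or listed reads, so those counts cannot be set against the whole table. A log2 ratio minus the median of all transcripts is called relative in what follows.

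Direction followed the numbering series on both chromosomes. Of the series C transcripts, 3 of 662 were at least 2-fold higher in WRR, against 0.764% of series C in the whole table, and 527 at least 2-fold higher in XH, against 76.1%. Their median log2 ratio was -1.74. Series B was balanced on the deposited scale, with 107 of 496 at least 2-fold higher in WRR, against 23.6% of series B in the whole table, 96 higher in XH, against 15.9%, and a median of -0.0020. Series A lay between them, with 9 of 271 at least 2-fold higher in WRR, against 5.15% in the whole table, 77 higher in XH, against 26.6%, and a median of -0.64. The relative medians were 0.27 in A, 0.91 in B and -0.82 in C, so on that scale series B leaned to WRR. Coverage moved with the series as well. The median for series B was 92.8% in WRR and 83.3% in XH, and that for series C was 56.3% in WRR and 91.6% in XH. For series A it was 81.9% in WRR and 90.7% in XH. Medians over the whole table were similar, 92.3% in WRR and 81.8% in XH for B and 58.85% and 91.4% for C. For A they were 84.1% and 89.9%. The part of the series in the ratios was not tested. Levels in the libraries went together more closely within a series. Pearson's r of log2(RPKM + 0.1) was 0.84 in A, 0.80 in B and 0.72 in C, and 0.61 over all 1429 transcripts. Spearman's rho was 0.69 in A, 0.78 in B, 0.64 in C and 0.58 over all. The whole table had the same pattern, with r of 0.77 in A, 0.75 in B, 0.68 in C and 0.57 over all. Its rho was 0.67, 0.75, 0.62 and 0.55. These are descriptions across transcripts that share 2 libraries.

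**Figure D3:**
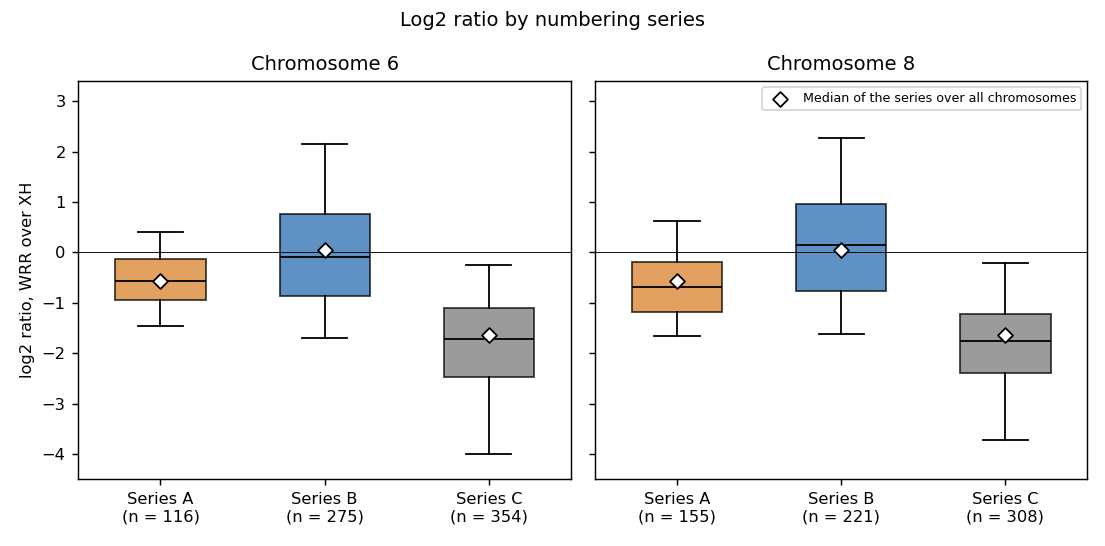
Log2 ratio of WRR over XH (vertical axis) in the 3 numbering series of chromosome 6 (left) and chromosome 8 (right). Boxes span the quartiles with the median as a line, whiskers run from the 5th to the 95th percentile, and diamonds mark the median of the same series over all chromosomes. Series B is centred near 0 and series C near -1.7 on both chromosomes.

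Along chromosome 6 the medians of large windows stayed below 0. The median log2 ratio in successive 5 Mb windows lay between -1.16, at 15 to 20 Mb, and -0.86, at 20 to 25 Mb, up to 30 Mb, and was -0.46 in the last window, from 30 Mb to the end. That last window had 81 transcripts, and its series B members had a median of 0.61 (38 transcripts) while its series C members had -1.83 (30 transcripts). With window borders shifted by 2.5 Mb the medians before the last window ran from -1.21, at 2.5 to 7.5 Mb, to -0.62, at 7.5 to 12.5 Mb, and the last was again -0.46. The ratio of summed reads varied more, from 0.434 at 15 to 20 Mb to 1.05 at 5 to 10 Mb of the unshifted windows. No 1 Mb window of at least 10 transcripts had a median above 0, of 29 such windows.

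Chromosome 8 varied more. Its 5 Mb medians were -0.90, -0.52, -1.19, -1.44 and -0.61 up to 25 Mb, and -0.47 from there to the end. The first of these windows joined opposite ends of the range. At 0 to 1 Mb the median was -2.58, and 25 of 26 transcripts were of series C. At 3 to 4 Mb it was 0.56, and 31 of 51 transcripts were of series B. With window borders shifted by 2.5 Mb, the first 2.5 Mb accordingly had a median of -1.93 and the next window, up to 7.5 Mb, one of -0.061. At 15 to 20 Mb, the lowest of the unshifted windows, series A had a median of -0.79, series B of -1.20 and series C of -1.77, so the series B members there lay well under the -0.0020 of both chromosomes together. Of 24 windows of 1 Mb with at least 10 transcripts, 2 had a median above 0.

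**Figure D4:**
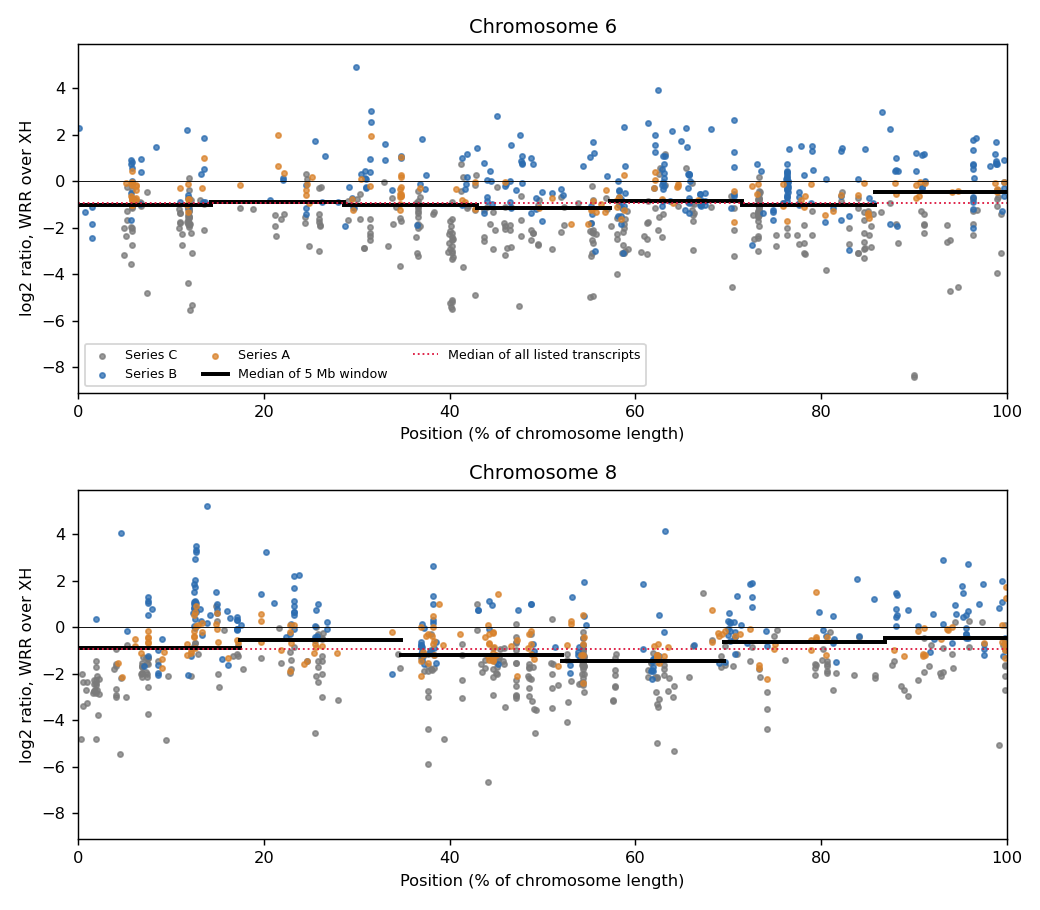
Log2 ratio of WRR over XH (vertical axis) of each transcript by position as percent of chromosome length, for chromosome 6 (top) and chromosome 8 (bottom), coloured by numbering series. Black bars are medians of 5 Mb windows and the dotted line is the median of all listed transcripts, -0.92. The bars of chromosome 6 run from -1.16 to -0.46, and those of chromosome 8 run from -1.44 to -0.47.

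Close neighbours resembled each other, and part of the likeness went with a shared series. For 479 pairs of successive transcripts of 1 series, less than 5 kb apart and not overlapping, Pearson's r of their log2 ratios was 0.67 and the median absolute difference 0.59. For 323 pairs of different series at the same distance r was -0.0087 and the median difference 1.12. Pairs of 1 series at least 50 kb apart already had 0.37 (95 pairs). After the median of its series was taken from each ratio, r was 0.46 for the close pairs of 1 series, 0.28 for those of different series and 0.40 for all 802. For the 273 pairs at least 50 kb apart it was then 0.024. Close neighbours of different series were thus also alike once the series medians were removed. Pairs share their libraries and their reads lie side by side, so these values are descriptions. Opposite calls, 1 member at least 2-fold higher in WRR and the next in XH, were found in 20 of the 802 close pairs. Of these, 19 were among the 323 pairs of different series and 1 among the 479 pairs of 1 series. Pairs at least 50 kb apart had 27 in 273.

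Several of the most abundant lncRNAs of chromosome 6 stood near 2 Mb and 11 Mb. The transcript with the highest mean level, chr6:1985064-1985753 of 690 bases, had 246 RPKM in WRR, against 351 RPKM in XH, on 1602 and 1870 reads. Its ratio of WRR over XH was 0.700 (exact 95% interval 0.654 to 0.749), a log2 ratio of -0.51 that turned to 0.40 relative to all transcripts and to 0.36 with TMM factors. Scaled to listed reads and by quantiles, its log2 ratio stayed negative, at -0.19 and -0.56. A shorter transcript directly after it, chr6:1985875-1986121, had 106 RPKM in WRR, against 340 RPKM in XH. The ratio there was 0.313 (0.269 to 0.363), a log2 ratio of -1.67, or -0.76 relative to all. These neighbours were thus alike in XH and differed in WRR. The 4 other transcripts within 10 kb had at most 4.37 RPKM in WRR, against 6.05 RPKM in XH, so the high level was limited to this pair. Further along, chr6:20351577-20352374 had 101 RPKM in WRR, against 133 RPKM in XH, a ratio of 0.760 (0.687 to 0.840) and a log2 ratio of -0.40 that turned to 0.52 relative to all transcripts and 0.48 with TMM factors. That log2 ratio, too, stayed negative with listed reads (-0.075) and quantiles (-0.39). The transcript chr6:25695579-25695903 had 113 RPKM in WRR, against 83.8 RPKM in XH, with a ratio of 1.35 (1.13 to 1.61).

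The transcript of chromosome 6 with the highest level in WRR was chr6:11026488-11027255, 768 bases of series A. It had 312 RPKM in WRR, against 79.8 RPKM in XH, from 2266 and 473 reads, and its ratio was 3.91 (3.54 to 4.33). Reads covered 99.9% of its length in both libraries. It alone took 5.76% of the chromosome 6 reads in WRR and 0.844% in XH. A transcript on either side went the same way. The one before it, chr6:11024715-11025721, had 2.84 RPKM in WRR, against 0.257 RPKM in XH, on 27 and 2 reads, with a ratio of 11.03 (2.77 to 95.7). The one after it, chr6:11029076-11029746, had 9.47 RPKM in WRR, against 1.55 RPKM in XH, on 60 and 8 reads. The 3 together had a ratio of 3.98 (3.61 to 4.40), and they were the only run of at least 3 successive transcripts on chromosome 6 that were all at least 2-fold higher in WRR. Runs were looked for after the values had been seen. The 4 scalings in use here all left the middle transcript at least 2-fold higher in WRR, with log2 ratios from 2.05 to 2.88.

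The other chromosome 6 transcripts that the rule named for a high ratio had low levels. Among those with reads in both libraries and at least 20 in sum, the highest log2 ratio belonged to chr6:21812802-21813639, with 3.79 RPKM in WRR, against 0.155 RPKM in XH, on 30 reads and 1 read. Its ratio of 24.5 has a counting interval of 4.07 to 1000, which sets a lower limit and hardly an upper one. Below the chr6:11024715-11025721 already described came chr6:30238362-30251414, which had 24 reads in WRR and 2 in XH, and chr6:24661439-24662255 had 27 and 3. All 3 were of series B, as were 1775 of the 2043 transcripts at least 2-fold higher in WRR in the whole table. Coverage of the 3 differed in the same sense, from 83.8 to 92.8% in WRR and from 10.7 to 33.1% in XH. Better-read transcripts at least 2-fold higher in WRR, chosen after their values were seen, were chr6:8915277-8920561, with 562 reads in WRR and 136 in XH, chr6:7518377-7518691, with 116 and 24, and chr6:22348846-22349106, with 104 and 19. Their levels were 11.4, 39.0 and 42.2 RPKM in WRR, against 3.38, 9.88 and 9.44 RPKM in XH, and their ratios 3.38 (2.79 to 4.10), 3.95 (2.53 to 6.41) and 4.47 (2.72 to 7.73). They belonged to series B, A and B.

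The largest difference towards XH on chromosome 6 was a pair of neighbours without a single WRR read. The transcript chr6:31454852-31489231, 1127 bases spread over an interval of 34380 bases, had 0 reads in WRR, against 280 reads, 32.2 RPKM, in XH. A floor of 3 reads for WRR makes its level in XH at least 114-fold higher, or 101-fold when the XH count is put at its lower 95% Poisson limit. Its neighbour chr6:31454295-31454723, which ends 0.129 kb before it, had 0 reads in WRR, against 112 reads, 33.8 RPKM, in XH, at least 45.7-fold higher (37.6-fold at the lower limit of its count). Reads covered 99.9% and 99.5% of their lengths in XH. The surroundings were read in both libraries. The nearest transcripts after the pair, from 38.1 kb on, had 72, 38 and 17 reads in WRR and 65, 13 and 10 in XH. On the other side, the nearest listed transcript ended 613 kb before the larger of the pair. That transcript, chr6:30841009-30841915 of series C, also leaned to XH, with 4 reads in WRR and 24 in XH, 7.34-fold higher in XH (2.52 to 29.1).

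A dash, taken as 0 reads, stood in WRR for 19 transcripts of chromosome 6 and 10 of chromosome 8, against 2.47% of all listed transcripts. In XH it stood for 5 on each chromosome, against 1.35%. These numbers correspond to lncRNAs read in 1 strain's pool and not detected in the other at this depth. Of the 29 absent from WRR, 28 were of series C, and all 10 absent from XH were of series B. The whole table was much the same, with 504 of 544 absent from WRR in series C and 254 of 296 absent from XH in series B. Outside the pair described, no transcript absent from WRR had more than 31 reads in XH. The most-read transcript absent from XH was chr6:10468653-10469482 on chromosome 6, with 23 reads and 2.93 RPKM in WRR, at least 6.26-fold higher than the floor (3.97-fold at the lower limit of its count). On chromosome 8 it was chr8:3988024-3988664, with 22 reads and 3.63 RPKM in WRR, at least 5.99-fold higher (3.75-fold at that limit). Its neighbour chr8:3986770-3987939, 0.085 kb before it and also of series B, had 31 reads in WRR and 22 in XH. In the other direction chr8:10835012-10835715 had 0 reads in WRR, against 31 reads, 5.71 RPKM, in XH, at least 12.6-fold higher (8.59-fold at that limit).

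Absence from WRR was bunched in 1 stretch of chromosome 6. Joined across gaps of up to 100 kb, the other absent transcripts of chromosome 6 stood alone or in pairs. On chromosome 8 each of the 10 stood alone. On chromosome 6, 5 of the 19 lay between 14008100 and 14070230, a stretch of 62.1 kb with 11 listed transcripts, all of series C. In that stretch 10 of 11 were at least 2-fold higher in XH, against 78.5% of all series C transcripts of chromosome 6. The summed reads were 30 in WRR and 209 in XH, 8.53-fold higher in XH after scaling. The stretch was picked for its absent transcripts, which are among the 10. It overlapped the end of the longest run of chromosome 6, 15 successive transcripts at least 2-fold higher in XH between 13365734 and 14061189. That run had 95 reads in WRR, against 388 in XH, with a ratio of 0.200 (0.158 to 0.251). After 1 transcript with a smaller difference, another run of 9 followed, up to 14092837, which held the last of the 5 absent ones and had 27 reads in WRR and 172 in XH. Single values within it were small, such as 3.35 RPKM in XH for chr6:14069651-14070230, which had 0 reads in WRR.

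Chromosome 8 had its longest run of this kind at its very start. All 19 successive transcripts between 88974 and 549162 were at least 2-fold higher in XH, with 83 reads in WRR and 452 in XH, 6.67-fold higher (5.26 to 8.53). All were of series C. Runs of 16 between 1923686 and 2137768 and of 14 between 17843892 and 17943437 were 3.18-fold and 2.86-fold higher in XH and drew on all 3 series. A run of 12 between 17636331 and 17816253 held 7 transcripts of series B and 5 of series C, with 852 reads in WRR and 2242 in XH, 3.22-fold higher (2.98 to 3.49). In all, chromosome 8 had 40 runs of at least 3 transcripts higher in XH and 1 higher in WRR, and chromosome 6 had 50 and 1. Of all transcripts past the filter, 50.3% on chromosome 8 and 47.8% on chromosome 6 were at least 2-fold higher in XH. Only 8.33% and 8.32% were higher in WRR, so far fewer runs towards WRR go with these shares. Whether runs were more frequent than the shares alone would give was not tested.

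That single run on chromosome 8 closed a group of 35 transcripts, between 3546540 and 3659926, that leaned to WRR. Of the 35, 27 had a log2 ratio above 0, 13 passed 2-fold towards WRR and 0 passed it towards XH. The summed reads were 1322 in WRR, against 679 in XH, with a ratio of 1.59 (1.45 to 1.75), and the median log2 ratio was 0.85. Levels were low throughout, with medians of 3.15 RPKM in WRR, against 1.94 RPKM in XH and no value above 5.71 RPKM. The group held 24 transcripts of series B, with a median of 1.03, 8 of series A, with -0.051, and 3 of series C, with -0.67. Relative to the medians of these series on both chromosomes, -0.0020, -0.64 and -1.74, each lay higher. This was the highest median among the 26 groups of at least 10 transcripts on the 2 chromosomes, and the group was picked out for it.

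The 4 transcripts of chromosome 8 with the highest log2 ratios among those read in both libraries, with at least 20 reads in sum, all lay in this group. With fewer reads, chr8:5809180-5810030 outside it had a log2 ratio of 3.26 on 16 reads in WRR and 1 in XH. At its end, chr8:3653824-3654716 had 3.56 RPKM in WRR, against 0.290 RPKM in XH, and chr8:3658011-3658717 had 3.15 RPKM in WRR, against 0.183 RPKM in XH. The last one, chr8:3658785-3659926, had 3.15 RPKM in WRR, against 0.227 RPKM in XH. These 3 had 85 reads in WRR, against 5 in XH, together, with a ratio of 13.9 (5.72 to 43.9). The fourth, chr8:3620166-3620759, had 5.71 RPKM in WRR, against 0.655 RPKM in XH, with a ratio of 8.71 (2.73 to 44.5). Elsewhere, groups at 4274882 to 4319909 and at 6666625 to 6684863 also had medians above 0, of 0.62 over 11 transcripts and 0.67 over 10.

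The abundant lncRNAs of chromosome 8 lay in other places and leaned to XH or to neither. The highest mean belonged to chr8:24186170-24187742, with 211 RPKM in WRR, against 268 RPKM in XH, on 3138 and 3258 reads. The ratio was 0.787 (0.749 to 0.827), and the log2 ratio of -0.35 turned to 0.57 relative to all transcripts and to 0.53 with TMM factors. With listed reads and quantiles it stayed negative, at -0.025 and -0.43. A cluster near 11 Mb held 4 of the 7 transcripts with at least 100 RPKM in XH. Its last transcript, chr8:11011486-11014519, had 58.8 RPKM in WRR, against 195 RPKM in XH, on 1685 and 4569 reads, with a ratio of 0.301 (0.285 to 0.319). Its log2 ratio of -1.73 stayed short of 2-fold relative to all transcripts, at -0.81. In the same cluster chr8:11007393-11008404 had 63.9 RPKM in WRR, against 146 RPKM in XH, with a ratio of 0.439 (0.397 to 0.484) and a log2 ratio of -1.19, or -0.27 relative to all. This transcript lies inside the interval of chr8:11004852-11008985, which had 58.6 RPKM in WRR, against 107 RPKM in XH, and without strand their reads cannot be told apart. The other members, chr8:11009217-11010401 and chr8:11010648-11011078, had 58.4 and 48.2 RPKM in WRR and 86.4 and 110 RPKM in XH.

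Levels at this cluster spanned a wider range in XH than in WRR. In WRR the 5 transcripts spanned 48.2 to 63.9 RPKM, and in XH they spanned 86.4 to 195 RPKM. Before them, chr8:10993190-10998157 had 18.3 RPKM in WRR, against 16.0 RPKM in XH, chr8:10998233-11000567 had 28.3 RPKM in both, and chr8:11000923-11004484 had 24.0 RPKM in WRR, against 39.7 RPKM in XH. From there to the end of the cluster all log2 ratios were negative, while 7 of the 19 transcripts of the wider group had ratios above 0. Relative to all transcripts, 3 of the final 6 turned positive, chr8:11000923-11004484 at 0.19, chr8:11004852-11008985 at 0.049 and chr8:11009217-11010401 at 0.35. With listed reads and with quantiles these 3 stayed negative.

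**Figure D5:**
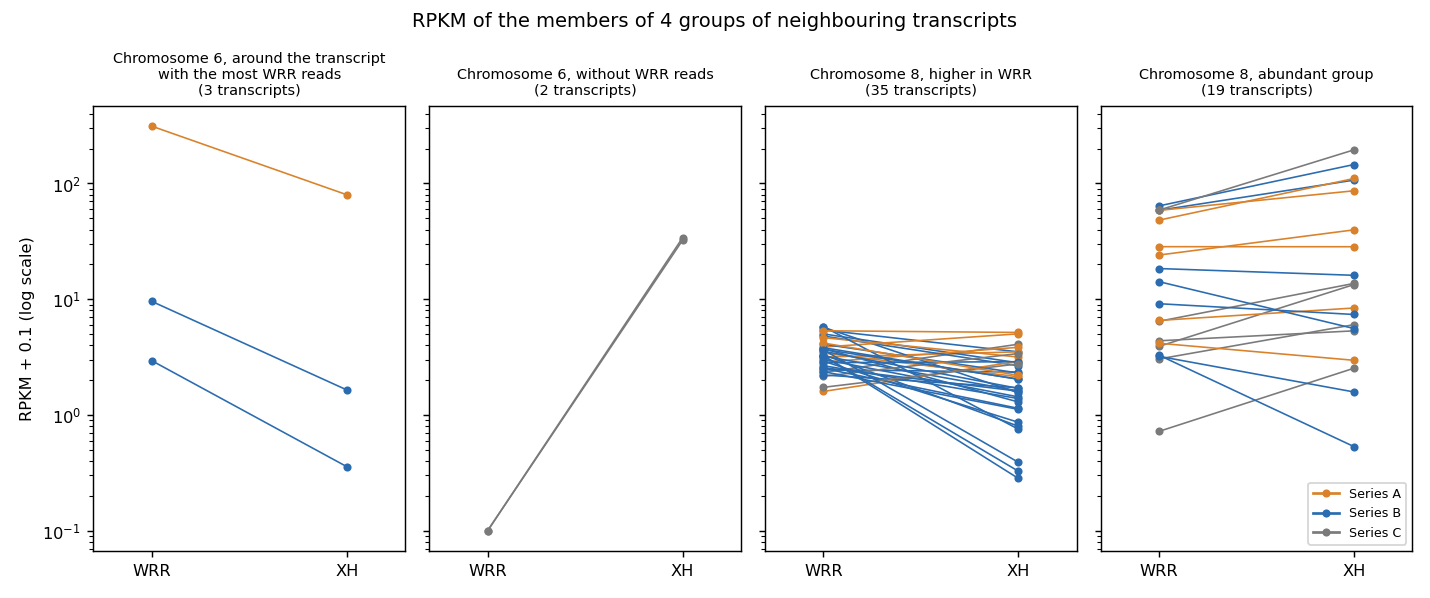
RPKM + 0.1 on a log axis of every member of 4 groups of neighbouring transcripts, with WRR left and XH right in each panel and a line for each transcript, coloured by numbering series. From left to right, the panels show the 3 transcripts around chr6:11026488-11027255, the 2 transcripts without WRR reads, the 35 transcripts of chromosome 8 that leaned to WRR, and the 19 of the group near 11 Mb. Lines fall to the right in the first panel, rise in the second and mostly fall in the third.

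Summed over both libraries, the most reads on chromosome 8 came from chr8:7371924-7379728, 7805 bases long. It had 5650 reads in WRR and 4499 in XH, 76.7 RPKM in WRR, against 74.7 RPKM in XH. In XH it had fewer reads than chr8:7355468-7363444 (4768) and chr8:11011486-11014519 (4569). It held 10.03% of the chromosome 8 reads in WRR and 5.82% in XH. Its ratio of 1.03 (0.986 to 1.07) did not differ from 1 beyond counting error, and its relative log2 ratio was 0.95. It is of series C, where 3 of 662 were at least 2-fold higher in WRR. Not far before it, chr8:7355468-7363444 had 42.7 RPKM in WRR, against 77.5 RPKM in XH, a log2 ratio of -0.86 that turned to 0.057 relative to all. This log2 ratio stayed negative with listed reads (-0.54) and quantiles (-0.48). The 2 remaining abundant ones were chr8:4941497-4942098, with 81.8 RPKM in WRR, against 141 RPKM in XH, and chr8:13398711-13399982, with 71.6 RPKM in WRR, against 126 RPKM in XH. Both had a negative log2 ratio, -0.79 and -0.81, that turned to 0.13 and 0.10 relative to all. Both stayed negative with listed reads (-0.46 and -0.49) and with quantiles (-0.71 and -0.69).

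The strongest leanings to XH among transcripts read in both libraries, with at least 20 reads in sum, rested on 1 to 7 WRR reads. On chromosome 6, chr6:14467981-14468223 had 3.05 RPKM in WRR, against 40.0 RPKM in XH, on 7 and 75 reads, and was 13.1-fold higher in XH (6.06 to 33.7). The transcript chr6:20272326-20273254 had 3 reads in WRR and 50 in XH, 20.4-fold higher (6.59 to 102). On chromosome 8 the lowest log2 ratio, -4.54, belonged to chr8:14157610-14157902, with 1 read in WRR and 24 in XH. Its fold of 29.4 has an interval from 4.79 to 1208. All 8 transcripts that the rule named in this direction were of series C.

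Length and splicing-like gaps went with level and ratio to different degrees. Transcripts under 500 bases had median RPKM values of 5.53 in WRR and 10.7 in XH, those of 500 to below 2000 bases 2.30 in WRR and 3.69 in XH, and those of at least 2000 bases 4.04 in WRR and 6.62 in XH. The median log2 ratio was -1.12, -0.94 and -0.90 in these classes, against -0.95, -0.92 and -0.85 over the whole table. Split by series, this order was lost. Ordered from short to long, the medians of series A were -0.29 (13 transcripts), -0.56 and -0.72. Those of B were -0.071, 0.10 and -0.81, so on both chromosomes together the longest class had the lowest median in A and B. Series B had -0.18, 0.10 and -0.90 (22 transcripts) on chromosome 6, but 0.30, 0.14 and 0.090 (17 transcripts) on chromosome 8. Over the whole table the medians were 0.33, -0.51 and -0.74 in A and 0.29, 0.080 and -0.66 in B. On both chromosomes together, series C differed little by length, with -1.80, -1.72 and -1.75. Its order was opposite by chromosome, -1.58, -1.75 and -2.10 (12 transcripts) on chromosome 6 and -2.10, -1.70 and -1.43 (16 transcripts) on chromosome 8. Gapped transcripts had a median of -0.35 (73 past the filter) and contiguous ones of -1.004, against 0.053 for gapped and -0.95 for contiguous ones over the whole table. Within series B the gapped ones of both chromosomes had 0.84 (29 transcripts) and the contiguous ones -0.046. Within series C gapped and contiguous ones had -1.50 (8 transcripts) and -1.72 on chromosome 6, and -2.02 (15 transcripts) and -1.73 on chromosome 8, so the order differed between the chromosomes. Over the whole table series C had -1.12 for gapped and -1.65 for contiguous ones. The longest transcript of chromosome 6, chr6:29772816-29780936, had 5.65 RPKM in WRR, against 16.9 RPKM in XH, with a ratio of 0.335 (0.299 to 0.375) and a log2 ratio of -1.56, or -0.65 relative to all. The longest of chromosome 8, chr8:28046597-28062276, had 7.73 RPKM in WRR, against 12.3 RPKM in XH, and its log2 ratio of -0.66 turned to 0.26 relative to all transcripts. The widest intervals belonged to chr6:24517797-24655893, with 138097 bases, 0 reads in WRR and 15 in XH, and to chr8:558080-619423, with 61344 bases, 14 reads in WRR and 55 in XH. An overlapping transcript with the same start as the first, chr6:24517797-24653924 over 136128 bases, had 6 reads in WRR and 8 in XH.

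The windows with the highest summed level held many transcripts, but sums did not simply follow the number of transcripts. The fullest window of chromosome 6, at 4 to 5 Mb, had a summed RPKM of 124 in WRR and 255 in XH. At 1 to 2 Mb, 14 transcripts had 388 in WRR and 760 in XH. On chromosome 8, 16 transcripts at 11 to 12 Mb had 342 in WRR and 735 in XH. On chromosome 6 the window at 25 to 26 Mb had the highest summed RPKM in both libraries, 687 in WRR and 1397 in XH. Most of it came from a group of 36 between 25555099 and 25629727, with median levels of 11.9 RPKM in WRR, against 29.9 RPKM in XH and a ratio of summed reads of 0.471 (0.446 to 0.498). Of these 36, 33 were of series C. A group of 28 close by, between 26653629 and 26701973, was as dense but of another make-up, with 25 of series B, medians of 15.3 RPKM in WRR, against 18.5 RPKM in XH and a ratio of 0.808 (0.749 to 0.872). On chromosome 8 the highest summed RPKM was at 3 to 4 Mb in WRR, with 364 there in WRR and 377 in XH. The median level in that window was only 3.59 RPKM in WRR. In XH the highest sum was at 15 to 16 Mb, with 807 in XH and 364 in WRR, nearly level with the WRR sum at 3 to 4 Mb. That second window held a group of 36, 29 of them of series C, with medians of 6.70 RPKM in WRR, against 18.2 RPKM in XH.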

How the data were processed

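The authors deposited a table of lncRNAs with read counts, RPKM and coverage in percent for 1 WRR and 1 XH library, each from 4 pooled birds. Per the file headers the counts are uniquely mapped reads, with totals of 9.44 M for WRR and 7.71 M for XH. The deposited RPKM equal count, length and total put into the usual formula within 0.001% for all listed values of both chromosomes. The deposited coverage is taken as percent of transcript length. Per the submitters' processing notes, the build was galGal4 and the tools included TopHat2 2.0.8 and Cufflinks 2.0.2, whose roles are not stated; assembly and filters are not given in the sources used here. A dash was taken as 0 reads, since the smallest listed count was 1. Deposited starts count from 0 and are printed from 1.

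From these values were computed log2((WRR + 0.1)/(XH + 0.1)) with a filter of 0.5 RPKM in the higher library, counts at 2-fold, exact 95% Clopper-Pearson intervals, and folds against a floor of 3 reads per library (Python 3.11.15, pandas 2.3.3, scipy 1.17.1; TMM with edgeR 4.0.16 in R 4.3.3). The calculations were tested on simulated data with counting noise only, and checked only in well-read transcripts. The low counts typical here were not covered by that check. Intervals and floors cover counting error only; without molecular identifiers, reads may repeat a molecule. Named were, per chromosome, the 5 highest mean RPKM, the 4 highest and 4 lowest log2 ratios among transcripts with reads in both libraries and at least 20 in sum, the most-read transcript absent from each library, the longest and widest, and the fullest windows. Runs, groups within 20 kb, the transcripts with most reads and neighbours were picked after their values were seen. The members, series and rules were chosen with earlier results of these data known. Reference names of another build were not used.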

Additional observations from a re-analysis of the deposited data

How the results depend on the processing

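No paired analysis was possible because WRR and XH have a single library of pooled birds each, and none could be left out. With few reads per transcript, single ratios have wide counting intervals. Of 86 comparisons of chromosome-wide results with an alternative, 56 kept direction and, broadly, size. Among them was every count and median under a pseudocount of 0.01 RPKM, no filter or a stricter one, and added scaffolds. So was every one with well-covered or contiguous transcripts only, or 1 transcript per overlap. Moderate changes of counts were included. With listed reads, those higher in XH fell from 356 to 266 on chromosome 6 and from 344 to 275 on chromosome 8. Windows were compared by value and not by place. The highest 5 Mb median of chromosome 8 went from -0.47 in its last window to -0.061 at 2.5 to 7.5 Mb.

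The 30 others moved. Centred, the larger count on chromosome 8 became the one higher in WRR. With a pseudocount of 1 RPKM, counts higher in WRR were 30 on chromosome 6 and 36 on chromosome 8, with median log2 ratios of -0.76 and -0.85. Centred on the median of all transcripts, chromosome 6 had 144 higher in WRR, 157 in XH and a median of -0.023, and chromosome 8 had 150, 145 and -0.10. With TMM these were 136, 172 and -0.097 on chromosome 6 and 137, 156 and -0.15 on chromosome 8. Quantile normalization gave 132, 147 and -0.16, and 133, 137 and -0.25. Scaling to the listed reads gave medians of -0.63 and -0.70, and 86 higher in WRR on chromosome 8. For the counts with a pseudocount of 1 RPKM, TMM, quantiles or listed reads, shares over all transcripts were not computed. Centring, TMM and listed reads move all ratios towards WRR by construction. Quantiles moved single log2 ratios unequally, from -0.51 to -0.56 for chr6:1985064-1985753 and from -0.66 to 0.054 for chr8:28046597-28062276. The median of all transcripts became -0.062 with TMM, -0.60 with listed reads and -0.12 with quantiles. Without the transcript most read in both libraries summed, read shares were 0.399% in WRR and 0.702% in XH on chromosome 6. On chromosome 8 they were 0.537% in WRR and 0.944% in XH. With shifted windows the lowest 5 Mb median of chromosome 8 was -1.93.

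Of 34 named transcripts, 28 kept their direction under every scaling tried. Centred and with TMM, the log2 ratio turned to 0.40 and 0.36 for chr6:1985064-1985753, 0.52 and 0.48 for chr6:20351577-20352374, 0.57 and 0.53 for chr8:24186170-24187742, 0.13 and 0.086 for chr8:4941497-4942098, 0.10 and 0.061 for chr8:13398711-13399982, and 0.26 and 0.21 for chr8:28046597-28062276, the last also to 0.054 with quantiles. Past 2-fold as deposited but not centred or with TMM were chr6:1985875-1986121 (-0.76 and -0.80), chr6:29772816-29780936 (-0.65 and -0.70, and -0.86 with quantiles), chr8:11011486-11014519 (-0.81 and -0.86) and chr8:11007393-11008404 (-0.27 and -0.32, and -0.87 with listed reads). With quantiles the same held for chr8:558080-619423 (-0.82). Past 2-fold only when centred or with TMM was chr6:25695579-25695903 (1.34 when centred). For single transcripts, listed reads and quantiles were tried after seeing the data.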
